A study of Mus musculus with 11 samples.

Results

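The macrophage and monocyte genes described here are 10 genes taken as a fixed list: Adgre1, Csf1r, Cd68, Mrc1, C1qa, C1qb, C1qc, Lyz2, Cx3cr1 and Ccr2. All 10 were found in the deposited table of 34866 genes by matching versioned Ensembl identifiers to mouse symbols, and all 10 were among the 14889 genes with enough counts to be tested. They were measured by bulk RNA sequencing of mouse gastric corpus mucosa in 11 samples. The samples were 2 wild-type controls and 3 samples from each of 3 DTR lines: ATP4B-DTR, GIF-DTR and their combination, GIF/ATP4B-DTR. DTR is the diphtheria toxin receptor, which makes mouse cells sensitive to the toxin. The lines are named for Atp4b, a proton pump subunit of the acid-secreting parietal cells, and for Gif, the intrinsic factor that mouse chief cells secrete; the series was set up to remove parietal cells, chief cells or both. The toxin dose, the time after toxin, the age and sex of the animals, and whether the controls also received toxin are not given in the sources used here. Nothing in those sources says that each sample came from a separate animal, so the p-values measure only the spread between these samples, which may be technical. Levels are given as CPM, that is, counts relative to a library size corrected by TMM (trimmed mean of M-values), with each control shown separately.

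Tissue macrophages live among the stromal cells of the gastric mucosa, between and below the glands, where they take up dead cells and debris. They depend on signals through CSF1R, the receptor for the growth factors CSF1 and IL-34, and many of them make C1q, the recognition part of the classical complement pathway, which also marks dying cells for uptake. Monocytes enter a tissue from the blood through CCR2, the receptor for CCL2 and CCL7, and can become macrophages there; CX3CR1, the receptor for CX3CL1, marks patrolling monocytes and long-lived tissue macrophages.

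Positions are those of the mm10 build (GRCm38) in GENCODE release M21, and all are protein-coding genes whose exons were counted. C1qa (chr4:136895917-136898803), C1qc (chr4:136889804-136893065) and C1qb (chr4:136880129-136886187) lie side by side on the minus strand within 18.7 kb. Adgre1 lies at chr17:57358691-57483527 on the plus strand, Cd68 at chr11:69664213-69666153 on the minus strand, Mrc1 at chr2:14229392-14332057 on the plus strand and Lyz2 at chr10:117277331-117282321 on the minus strand. Cx3cr1 lies at chr9:119901616-120069879 on the minus strand and Ccr2 at chr9:124101950-124113557 on the plus strand. Counts were fractional, as when reads are divided between features that share sequence, in 10 of 11 samples for Cx3cr1, 9 for Csf1r, 6 for Ccr2 and 1 for Lyz2, so those levels are less certain than the whole-number counts of the other 6 genes.

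The 250 bases before the RefSeq start site are shown for C1qb and Cd68 because these genes followed the rest of the list most and least closely in the values below. Capitals mark GAGGAA or its reverse complement TTCCTC, a form of the core bound by ETS factors such as PU.1, the factor encoded by Spi1 that myeloid cells need. Both sequences are from the RefSeq table of GRCm38.p6, read 5′ to 3′ on the gene's own strand.
C1qb, chr4:136886201-136886450, minus strand: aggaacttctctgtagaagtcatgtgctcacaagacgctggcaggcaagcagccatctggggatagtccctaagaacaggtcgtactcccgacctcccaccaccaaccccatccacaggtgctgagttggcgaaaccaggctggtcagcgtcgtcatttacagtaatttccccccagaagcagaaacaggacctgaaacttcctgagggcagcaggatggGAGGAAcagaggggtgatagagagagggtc
Cd68, chr11:69666171-69666420, minus strand: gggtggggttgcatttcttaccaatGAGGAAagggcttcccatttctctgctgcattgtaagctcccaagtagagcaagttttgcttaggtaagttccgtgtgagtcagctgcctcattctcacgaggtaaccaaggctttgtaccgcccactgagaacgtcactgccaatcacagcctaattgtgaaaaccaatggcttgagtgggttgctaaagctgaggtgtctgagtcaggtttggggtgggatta
The motif begins 30 bases before the start site in C1qb and 225 bases before it in Cd68. The table held 7 of the 10 genes, without Adgre1, Csf1r and C1qa. Of those 7 windows, 4 held the motif on either strand (Cd68, Mrc1, C1qb and C1qc), against 23.3% of all 32851 windows of this length in the table. A match is a run of letters and was not tested for binding.

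Sample totals ranged from 20.7 to 27.9 M counts, and the 10 genes together took between 397 counts (control 1) and 5103 counts (GIF-DTR 3) of a sample. A count of 3 corresponds to between 0.107 and 0.166 CPM, the smallest level taken here as seen. Atp4b was at 4786 and 4365 CPM in the controls, between 475 and 683 in ATP4B-DTR, between 2136 and 3470 in GIF-DTR and between 158 and 468 in GIF/ATP4B-DTR. Gif was at 702 and 2303 CPM in the controls, between 332 and 824 in ATP4B-DTR, between 65.5 and 196 in GIF-DTR and between 72.3 and 218 in GIF/ATP4B-DTR, so both targeted genes were lowest where the labels put them. The Y-linked genes Ddx3y and Eif2s3y summed to between 78.1 and 119 CPM in both controls, ATP4B-DTR 1 and all 3 GIF/ATP4B-DTR samples, and to at most 0.157 CPM in the other 5 samples. The ATP4B-DTR samples differ in it, so they are not all from 1 animal. GIF-DTR therefore differs from control, and from GIF/ATP4B-DTR, in Y-linked expression in every sample, and the line cannot be told apart from that difference in those comparisons.

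Csf1r, the CSF1 receptor, and Adgre1, which encodes the macrophage surface protein F4/80, were high in GIF-DTR, low in GIF/ATP4B-DTR and far apart in the controls. Csf1r was at 0.988 CPM in control 1 and 11.03 in control 2, at 3.212, 3.204 and 6.83 in ATP4B-DTR, at 9.03, 9.05 and 12.4 in GIF-DTR, and at 1.61, 2.65 and 2.24 in GIF/ATP4B-DTR. Adgre1 was at 0.494 and 4.16 CPM in controls 1 and 2, at 2.37, 1.45 and 2.65 in ATP4B-DTR, at 3.83, 3.74 and 5.32 in GIF-DTR, and at 1.61, 0.983 and 1.39 in GIF/ATP4B-DTR. For both genes every GIF-DTR sample lay above every ATP4B-DTR sample, every GIF/ATP4B-DTR sample lay below every GIF-DTR sample, and control 2 lay within the range of GIF-DTR while control 1 was the lowest of all 11 samples.

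The C1q genes encode the 3 chains of C1q. C1qa was at 1.75 and 14.0 CPM in controls 1 and 2, at 6.14, 4.70 and 12.5 in ATP4B-DTR, at 19.0, 20.3 and 21.3 in GIF-DTR, and at 4.15, 10.1 and 4.99 in GIF/ATP4B-DTR. C1qb was at 1.17 and 11.3 CPM in the controls, at 5.31, 4.57 and 12.1 in ATP4B-DTR, at 19.6, 19.7 and 21.7 in GIF-DTR, and at 3.75, 8.25 and 4.67 in GIF/ATP4B-DTR. The 3 GIF-DTR samples were close together, at 20.2 ± 1.15 CPM for C1qa, 20.3 ± 1.14 for C1qb and 16.9 ± 1.04 for C1qc (mean ± SD, n = 3), and lay above every other sample for all 3 genes. C1qc followed the same order of groups, at 1.62 and 11.8 CPM in the controls, between 3.38 and 10.3 in ATP4B-DTR and between 3.63 and 8.81 in GIF/ATP4B-DTR.

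Lyz2, which encodes lysozyme M of macrophages, monocytes and neutrophils, had the highest mean level of the list per kb of transcript in every group, although in control 1 Cd68 was higher, at 4.14 against 3.07 CPM per kb. It was at 4.04 and 25.7 CPM in controls 1 and 2, at 20.0, 25.2 and 52.0 in ATP4B-DTR, at 37.3, 78.2 and 104 in GIF-DTR, and at 20.2, 31.1 and 20.1 in GIF/ATP4B-DTR. All GIF-DTR samples lay above both controls and above all GIF/ATP4B-DTR samples, but GIF-DTR 1 lay below ATP4B-DTR 3. Per kb, Lyz2 averaged 55.7 CPM in GIF-DTR, followed by C1qa at 19.4, C1qb at 18.7, C1qc at 8.77 and Cd68 at 5.04. The surface receptors were lower, from Csf1r at 1.76 and Adgre1 at 1.33 down to Ccr2 at 0.665 CPM per kb in GIF-DTR.

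Ccr2, the receptor through which monocytes leave the blood, had the lowest mean level of the list per kb in every group, although Mrc1 was lower in 4 of the samples (ATP4B-DTR 2, GIF-DTR 2 and 3, and GIF/ATP4B-DTR 1) and Cx3cr1 in 2 (ATP4B-DTR 2 and GIF-DTR 3). It was at 0.0449 CPM in control 1, which is a single count, and at 1.22 in control 2. It was at 1.35, 2.06 and 2.07 CPM in ATP4B-DTR, at 2.93, 4.05 and 6.51 in GIF-DTR, and at 1.61, 0.812 and 0.819 in GIF/ATP4B-DTR. Every sample of the ATP4B-DTR and GIF-DTR lines was above both controls. Cx3cr1 spread more within groups, at 1.71 and 3.44 CPM in the controls, at 2.23, 0.966 and 2.48 in ATP4B-DTR, at 6.76, 2.71 and 3.57 in GIF-DTR, and at 1.09, 2.48 and 1.28 in GIF/ATP4B-DTR. Its GIF-DTR samples lay above those of ATP4B-DTR and of GIF/ATP4B-DTR, with GIF-DTR 2 only just above, and overlapped the controls.

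Mrc1 and Cd68 did not follow this order of groups. Mrc1, which encodes the mannose receptor CD206 of tissue macrophages, was at 0.808 and 7.82 CPM in controls 1 and 2, at 5.35, 1.62 and 2.24 in ATP4B-DTR, at 4.87, 3.19 and 4.76 in GIF-DTR, and at 0.766, 3.68 and 1.71 in GIF/ATP4B-DTR. All of its groups overlapped. Cd68, which encodes a lysosomal glycoprotein of phagocytes, was at 5.21 and 3.38 CPM in the controls, at 4.61, 7.20 and 6.79 in ATP4B-DTR, at 6.72, 6.96 and 5.32 in GIF-DTR, and at 4.03, 5.69 and 8.76 in GIF/ATP4B-DTR. Cd68 was the only gene of the 10 that was lower in control 2 than in control 1, and its highest level was 2.59 times its lowest, against 7.01 times for Cx3cr1, the next narrowest.

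**Figure D1:**
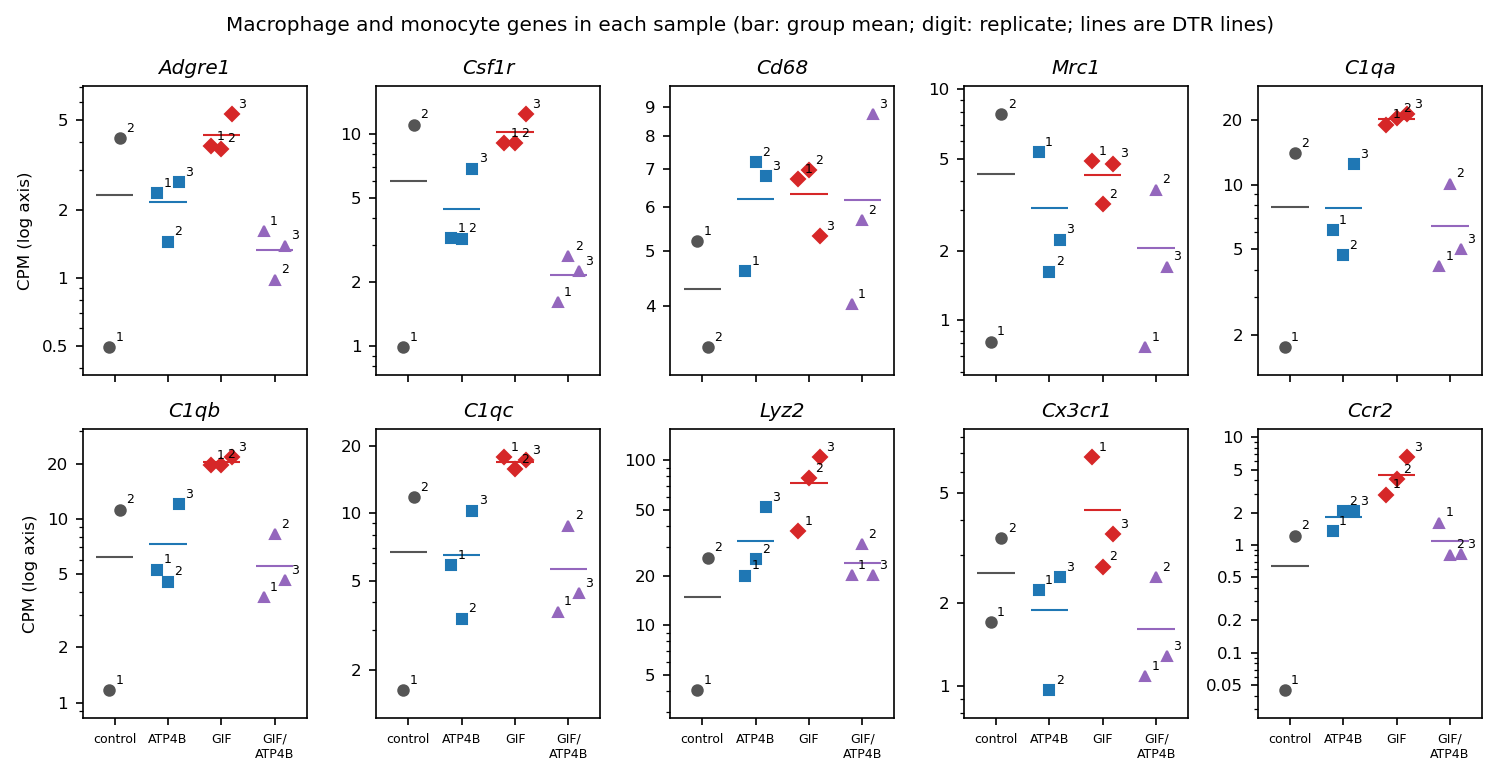
TMM-scaled CPM (log axis, with its own range for each gene) of the 10 macrophage and monocyte genes in the 2 controls and 3 samples of each DTR line; points are samples with their replicate number and bars are group means. The 3 GIF-DTR samples of C1qa, C1qb and C1qc lie close together above all others, control 1 lies lowest for 7 of the 10 genes, and Cd68 shows no such order.

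How closely each gene followed the others was described by the correlation of its log2 CPM with the mean of the other 9 genes over the 11 samples, which share group differences, library and scaling. It was 0.99 for C1qb, 0.98 for C1qa, 0.97 for C1qc and 0.94 for Csf1r. It was 0.88 for Adgre1 and Lyz2, 0.81 for Ccr2, 0.72 for Mrc1 and 0.68 for Cx3cr1, and 0.01 for Cd68. Without control 1 the values for the C1q genes and Csf1r stayed between 0.93 and 0.98, while Mrc1 had 0.58, Ccr2 0.67 and Cd68 -0.06.

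Between the single lines, the levels of the macrophage genes were higher in GIF-DTR, without passing the test. For 7 of the 10 genes (Adgre1, Csf1r, C1qa, C1qb, C1qc, Cx3cr1 and Ccr2) every GIF-DTR sample lay above every ATP4B-DTR sample, which held for 9.27% of all genes tested. C1qb had a log2 fold change of 1.47 with a 95% interval from -0.04 to 2.99, and an adjusted p of 0.526 (edgeR quasi-likelihood test, Benjamini-Hochberg over all genes tested, n = 3 per group). Csf1r had a log2 fold change of 1.20 (interval from -0.24 to 2.64, adjusted p = 0.602) and Ccr2 one of 1.30 (interval from -0.18 to 2.77, adjusted p = 0.580). The log2 fold changes of the 10 genes ranged from 0.03 (Cd68) to 1.47 (C1qb), with a median of 1.20 against 0.01 over all genes tested. At an adjusted p under 0.05, edgeR called 0 of the 10, with 1 (Cx3cr1) at an unadjusted p under 0.05, against 9.81% of all genes, and 0 called by DESeq2; edgeR called 0.490% of all genes. ATP4B-DTR 1 carries Y-linked expression and the other ATP4B-DTR samples do not; within the 5 samples without it the median was 1.11 and 0 genes were called. Genes of other cell types lay in the same direction, with GIF-DTR higher in 8 of 8 endothelial genes (median 1.31), 9 of 10 stromal fibroblast genes (median 0.98) and 6 of 6 genes of leukocytes in general (median 0.78). The 3 red blood cell genes (Hba-a1, Hbb-bs and Alas2) were also higher, by a median of 1.62, with 0 called by edgeR and 2 by DESeq2. With libraries scaled by the endothelial genes the median of the 10 genes was 0.04, and Adgre1, Cd68, Mrc1 and Cx3cr1 turned direction; that scaling moved the median of all genes by -1.33.

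In the line that carries both receptors the levels of most of the 10 genes were lower than in GIF-DTR, without passing the test. For 8 of the 10 genes, all but Cd68 and Mrc1, every GIF/ATP4B-DTR sample lay below every GIF-DTR sample, which held for 14.2% of all genes tested. Csf1r had the lowest log2 fold change, -2.22 ± 0.67 (SE), or 4.67-fold lower, with an interval from -3.72 to -0.73 and an adjusted p of 0.132. C1qb had a log2 fold change of -1.87 ± 0.68 (adjusted p = 0.199), Ccr2 one of -2.05 ± 0.69 (adjusted p = 0.164) and Adgre1 one of -1.69 ± 0.59 (adjusted p = 0.173). Cd68, at -0.04 ± 0.31, and Mrc1, at -1.06 ± 0.77, were nearest to no difference. The median was -1.64 against 0.01 over all genes tested. Genes of other cell types were lower too: the endothelial genes in 8 of 8, by a median of -2.05, the stromal fibroblast genes in 10 of 10, by a median of -1.38, and the genes of leukocytes in general in 6 of 6, by a median of -1.27. The red blood cell genes were lower in 3 of 3, by a median of -1.37. Their part in the result was not tested.

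At an adjusted p under 0.05 edgeR called 0 of the 10 genes in this comparison, against 2.53% of all genes, and 8 of the 10 were at an unadjusted p under 0.05, against 18.0% of all genes. The count of calls differed between fits. DESeq2 called 3 of the 10 lower, against 6.63% of all genes. Fitted to the 6 samples of these lines alone, edgeR called 5 lower, against 2.27% of all genes. It called 4 lower when control 1 was left out of the fit and 4 when control 2 was, against 2.48% and 2.54% of all genes. The cause of these differences was not tested. Scaling each library by the summed counts of 8 endothelial genes turned the direction for 8 of the 10 genes (Adgre1, Cd68, Mrc1, C1qa, C1qc, Lyz2, Cx3cr1 and Ccr2), with a median of 0.18; it also moved the median of all genes by 1.98. In whole mucosa, fewer macrophages and less of a transcript in each macrophage cannot be told apart.

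Between GIF/ATP4B-DTR and ATP4B-DTR the differences were smaller. All 10 log2 changes were below 0, the median log2 change of the 10 genes was -0.42, edgeR called 0 of them and 0% of all genes, 0 were at an unadjusted p under 0.05, and DESeq2 called 0. The direction was not stable: without ATP4B-DTR 3, 6 of the 10 were above 0 with a median of 0.04, and with stromal and endothelial scaling 7 and 8 were, with medians of 0.12 and 0.31. Csf1r had the lowest value, at -1.03, and its GIF/ATP4B-DTR samples, at 1.61 to 2.65 CPM, all lay below its ATP4B-DTR samples, at 3.204 to 6.83. The groups of C1qb overlapped, between 4.57 and 12.1 CPM in ATP4B-DTR and between 3.75 and 8.25 in GIF/ATP4B-DTR. The interaction takes the difference of GIF/ATP4B-DTR from ATP4B-DTR and subtracts from it the difference of GIF-DTR from control; its median over the 10 genes was -1.62, against -0.04 over all genes. edgeR called 0 of the 10, against 0.651% of all genes, with 2 at an unadjusted p under 0.05, against 15.6% of all genes, and DESeq2 called 1, against 4.90% of all genes. The median was -0.86 without control 1 and -3.80 without control 2.

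Against the controls, the answer turned on which control was used. Control 2 was higher than control 1 in 9 of the 10 genes, by 8.42 times for Adgre1, 11.2 times for Csf1r, 9.67 times for Mrc1, 7.98, 9.64 and 7.30 times for C1qa, C1qb and C1qc, 6.37 times for Lyz2 and 2.01 times for Cx3cr1. For Ccr2 the 2 controls had 1 count and 22 counts. Across all genes tested, 34.9% were higher in control 2 than in control 1. Both controls are therefore given by themselves in the comparisons that follow.

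Ccr2 was the 1 gene of the 10 that rose in GIF-DTR against both controls together, with a log2 fold change of 2.86 ± 0.86 (SE) and an adjusted p of 0.0441 (edgeR, 2 controls and 3 GIF-DTR samples); DESeq2 called 2 of the 10, against 22.6% of all genes. edgeR called 16.8% of all genes in this comparison. Lyz2 had a log2 fold change of 2.31 ± 0.79 (adjusted p = 0.0821), C1qb one of 1.72 ± 0.79 (adjusted p = 0.171) and Csf1r one of 0.77 ± 0.73 (adjusted p = 0.526), while Mrc1 was at -0.01 ± 0.85. Every GIF-DTR sample lay above both controls for 6 genes (Cd68, C1qa, C1qb, C1qc, Lyz2 and Ccr2), a share to be read against 25.0% of all genes. The Ccr2 call was lost without control 1, where the log2 fold change was 1.88 and the adjusted p 0.102 (6.49 without control 2), and in 7 other of the 11 fits that each left out a sample. It was also lost with only the groups compared, when the Y-linked index entered as covariate, and with scaling by stromal genes.

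Against control 1 alone, with the spread pooled over the other groups, 7 of the 10 genes were called higher in GIF-DTR with a median log2 change of 3.37, while 5.63% of all genes were called. Against control 2 alone, 0 were called, against 7.31% of all genes, and the median was 0.53. Csf1r was at 3.35 against control 1 and -0.12 against control 2, C1qb at 4.12 and 0.86, Ccr2 at 6.49 and 1.88, Lyz2 at 4.18 and 1.51, and Mrc1 at 2.39 and -0.87. Cd68 ran the other way, at 0.28 against control 1 and 0.91 against control 2.

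The group means of ATP4B-DTR and GIF/ATP4B-DTR lay between the controls for most of these genes. Single samples went outside. C1qb was at 12.1 CPM in ATP4B-DTR 3, against 11.3 in control 2. Mrc1 was at 0.766 CPM in GIF/ATP4B-DTR 1, against 0.808 in control 1. In ATP4B-DTR the median log2 change was -0.02 against both controls, 2.13 against control 1 alone (3 genes called, against 8.51% of all genes) and -0.85 against control 2 alone (0 called, against 13.8%). edgeR called 0 of the 10 against both controls, with 0 at an unadjusted p under 0.05 and 0 by DESeq2, while it called 21.6% of all genes. In GIF/ATP4B-DTR the median was -0.27 against both controls, 1.60 against control 1 alone (2 genes called higher, with 18.6% of all genes called) and -1.08 against control 2 alone (2 genes called lower, with 28.3% called). Again 0 were called against both controls, with 0 at an unadjusted p under 0.05 and 0 by DESeq2, while 33.6% of all genes were called.

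**Figure D2:**
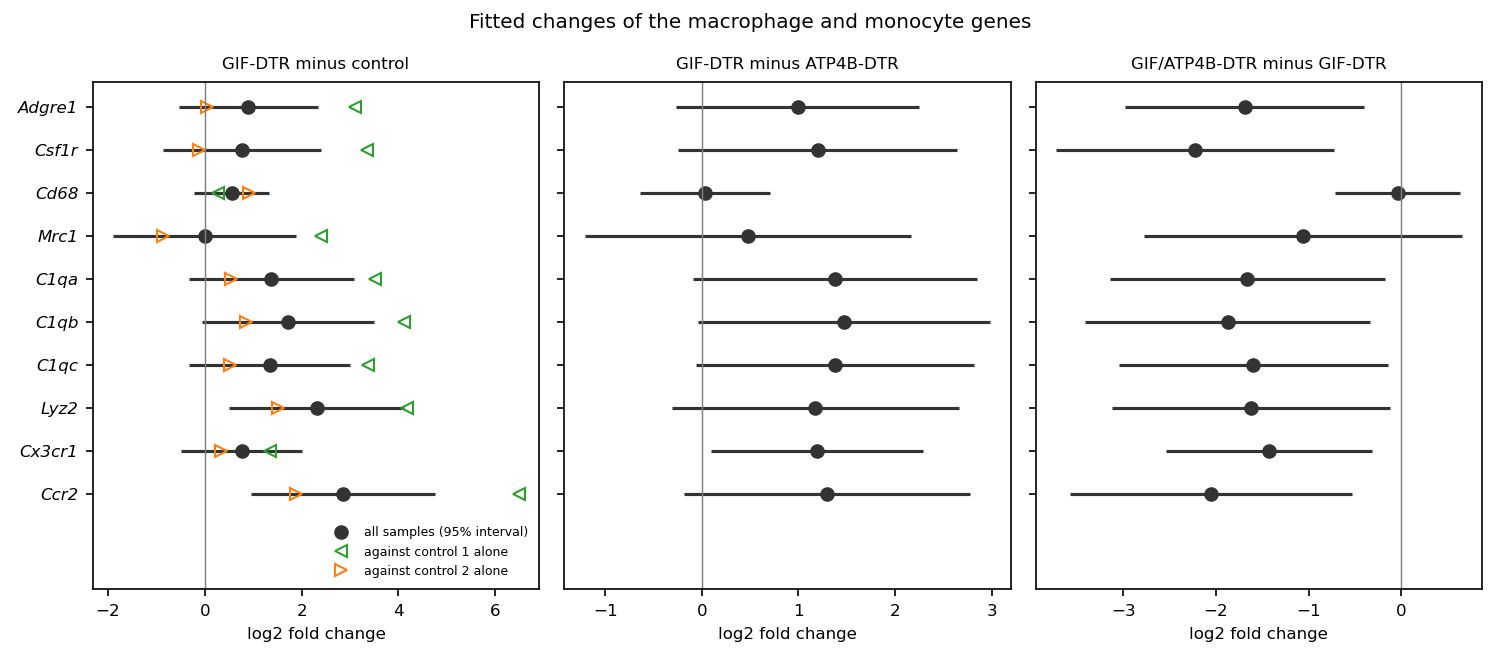
Fitted log2 fold changes of the 10 genes in 3 comparisons (edgeR; circles with 95% intervals, all 11 samples in the fit); in the first panel triangles give the value against each control alone, without an interval. Values against control 1 alone lie to the right of those against control 2 alone for 9 of the 10 genes, and the GIF/ATP4B-DTR minus GIF-DTR intervals of all genes but Cd68 and Mrc1 lie below 0.

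The levels were then read against genes of the stroma in the same sample: 10 fibroblast genes (Col1a1, Col1a2, Col3a1, Col6a1, Dcn, Lum, Pdgfra, Pdgfrb, Fbln1 and Mmp2). They too were far apart in the controls, with all 10 higher in control 2 than in control 1 by a median log2 ratio of 3.56, beside 3.03 for the macrophage genes. Their summed CPM was 140 in control 1 and 694 in control 2, between 193 and 394 in ATP4B-DTR, 867, 280 and 400 in GIF-DTR 1, 2 and 3, and between 135 and 342 in GIF/ATP4B-DTR. Of the endothelial genes 8 of 8 were higher in control 2, by a median log2 ratio of 3.14. Genes found in leukocytes in general (Ptprc, Coro1a, Cd52, Cd53, Laptm5 and Rac2) differed less, summing to 22.0 CPM in control 1 and 41.2 in control 2.

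Fbln1, which encodes the matrix protein fibulin-1, did not follow the other fibroblast genes: it was at 81.4 and 84.6 CPM in controls 1 and 2 and made up 58.2% of the stromal sum in control 1 and 41.8% in ATP4B-DTR 2, against 6.39% to 22.0% in the other samples. The ratios below therefore use the sum of the other 9 genes; this choice was made after the values were seen. Per 1000 CPM of those 9 genes, Csf1r was at 16.9 and 18.1 CPM in controls 1 and 2, C1qb at 20.0 and 18.5, and Mrc1 at 13.8 and 12.8. For these 3 genes the controls were close on this scale, although in CPM each was 9.64 to 11.2 times higher in control 2. With Fbln1 kept in the sum they still differed: Csf1r was at 7.07 and 15.9, C1qb at 8.35 and 16.2, and Mrc1 at 5.78 and 11.3. The 10 genes summed were at 305 and 154 without Fbln1 and at 128 and 135 with it. Ccr2, at 0.769 and 2.00, stayed higher in control 2, while Lyz2, at 69.2 and 42.2, Cx3cr1, at 29.2 and 5.64, and Cd68, at 89.2 and 5.55, were higher in control 1 on this scale.

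GIF-DTR split on the same scale for C1qb, Csf1r and Lyz2, though not for every gene of the list. C1qb was at 24.2 CPM per 1000 stromal CPM in GIF-DTR 1, but at 81.6 in GIF-DTR 2 and 62.5 in GIF-DTR 3, above the other 9 samples, which reached 40.6 at most (ATP4B-DTR 2). Csf1r was at 11.1 in GIF-DTR 1 and at 37.4 and 35.7 in GIF-DTR 2 and 3, against 8.81 to 28.5 in the other 8 samples. Lyz2 was at 45.9 in GIF-DTR 1, near the controls, and at 323 and 301 in GIF-DTR 2 and 3, against 70.8 to 224 in ATP4B-DTR and 103 to 188 in GIF/ATP4B-DTR. In CPM the C1q genes of the 3 GIF-DTR samples had been nearly equal, while the stromal sum was highest in GIF-DTR 1. Lyz2 differed in CPM as well, at 37.3 in GIF-DTR 1 and at 78.2 and 104 in GIF-DTR 2 and 3. Ccr2, Mrc1, Cx3cr1 and Cd68 did not have both GIF-DTR 2 and 3 above all other samples on the stromal scale. Ccr2 was at 16.7 and 18.8 in them, against 18.4 in ATP4B-DTR 2. Mrc1 was at 13.2 and 13.7 in them, against 18.9 in ATP4B-DTR 1.

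Pairs of samples show this gene by gene. Against control 1, the poorer control, all 3 GIF-DTR samples were higher in 10 of 10 macrophage genes and 9 of 10 stromal genes, with stromal median log2 ratios of 3.94, 2.09 and 2.24 beside 3.20, 3.24 and 3.52 for the macrophage genes. GIF-DTR 2 was higher than control 2 in 6 of the 10 macrophage genes and in 0 of the 10 stromal genes, with median log2 ratios of 0.48 and -1.52. GIF-DTR 3 was higher than control 2 in 9 macrophage genes and 1 stromal gene, with medians of 0.58 and -1.18. GIF-DTR 1 was higher than control 2 in 7 macrophage and 6 stromal genes, with medians of 0.56 and 0.24. In GIF-DTR 2 the macrophage genes below control 2 were Adgre1, Csf1r, Mrc1 and Cx3cr1.

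Pairs of the DTR lines were mixed. GIF-DTR 2 was higher than ATP4B-DTR 3 in 10 of 10 macrophage genes and 1 of 10 stromal genes; in the other 8 pairs of these lines 5 to 10 of the stromal genes were higher along with 8 or 9 of the macrophage genes. GIF/ATP4B-DTR 2 was lower than GIF-DTR 2 in 9 of 10 macrophage genes, by a median log2 ratio of -1.14, although 7 of 10 stromal genes were higher, by a median of 0.23, and 0 of 8 endothelial genes were. In the other 8 pairs of these lines 0 to 2 of the stromal genes were higher, so most genes of both lists were lower. GIF/ATP4B-DTR 1 was lower than ATP4B-DTR 3 in all 10 genes of both lists. The macrophage genes of GIF/ATP4B-DTR relative to the stroma overlapped those of ATP4B-DTR, with C1qb at 34.96, 27.4 and 32.8 in GIF/ATP4B-DTR and at 18.8, 40.6 and 33.8 in ATP4B-DTR per 1000 stromal CPM.

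**Figure D3:**
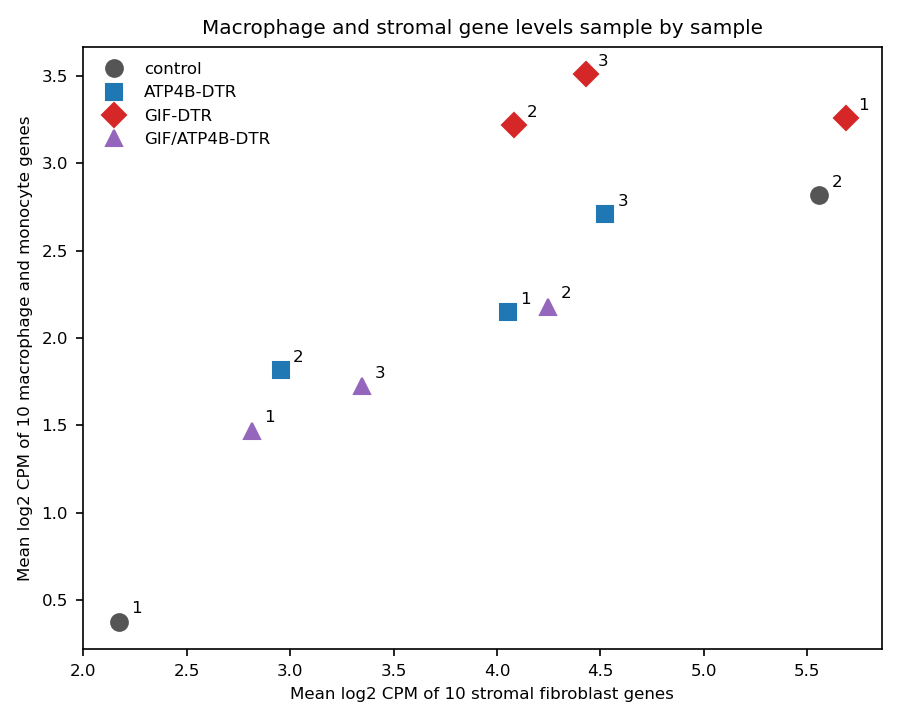
Mean log2 CPM of the 10 macrophage and monocyte genes (vertical axis) against mean log2 CPM of the 10 stromal fibroblast genes (horizontal axis), 1 point per sample with its replicate number. Control 1 lies at the lower left (0.38 and 2.17) and control 2 at the upper right (2.82 and 5.56); GIF-DTR 2 and 3 lie highest for their stromal level, and GIF-DTR 1 lies beside control 2.

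**Figure D4:**
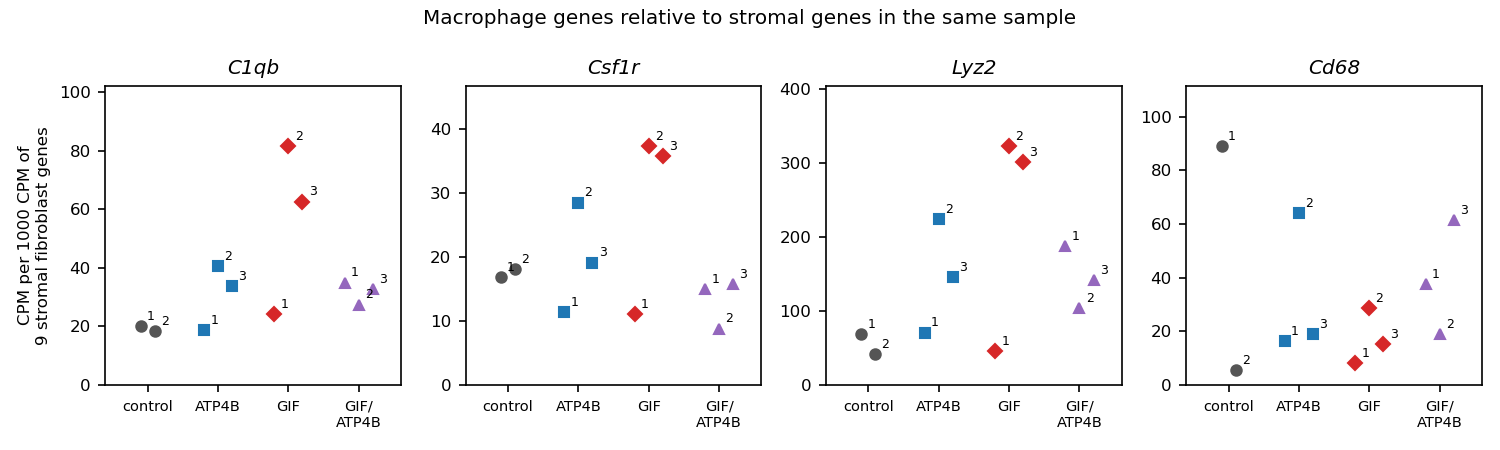
CPM of C1qb, Csf1r, Lyz2 and Cd68 per 1000 CPM of 9 stromal fibroblast genes (those named, without Fbln1) in the same sample; each point is a sample with its replicate number. GIF-DTR 2 and 3 lie above all other samples for C1qb, Csf1r and Lyz2 while GIF-DTR 1 does not, and for Cd68 control 1 lies highest at 89.2.

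With libraries scaled by the 10 stromal genes in place of TMM, the median log2 change of the macrophage genes was 1.28 in GIF-DTR, 0.54 in ATP4B-DTR and, for the combined line, 0.72 against control, where TMM gave -0.02 for ATP4B-DTR and -0.27 for the combined line. It was 0.76 in GIF-DTR against ATP4B-DTR and -0.69 in GIF/ATP4B-DTR against GIF-DTR. That scaling moved the median of all genes by -0.86, -0.29, 0.26, -0.58 and 1.12 in these comparisons, in the same order, and 0 of the 10 genes were called in each. Without Fbln1 the medians of the macrophage genes were 0.82, 0.25, 0.35, 0.48 and -0.59. Per 1000 endothelial CPM, the summed 10 genes were at 804 and 744 in the controls, 1362 in GIF-DTR 1, and between 2702 and 5132 in the other 8 samples.

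Among 22 other macrophage genes, 20 were tested, all but Timd4 and Vsig4. In GIF-DTR against control edgeR called 5 higher and 0 lower, where it called 1485 of all 14889 genes tested higher. DESeq2 called 8 higher and 1 lower, against 22.6% of all genes in either direction. The 5 genes called by edgeR were Cd14, a receptor for bacterial lipopolysaccharide, Aif1, the calcium-binding protein IBA1, Fcer1g, a signalling chain of Fc receptors, and Trem2 and Gpnmb, a lipid receptor and a glycoprotein of lipid-laden macrophages. Aif1 was at 0.314 and 0.832 CPM in the controls and at 3.74, 3.97 and 4.60 in GIF-DTR (log2 fold change 2.85 ± 0.72, adjusted p = 0.0222). Gpnmb was at 0.090 and 0.554 CPM in the controls and at 1.84, 6.37 and 4.88 in GIF-DTR (3.79 ± 1.02, adjusted p = 0.0287). The 5 genes were picked by their calls on these same values, and all 3 GIF-DTR samples were above both controls for each. Over the 20 genes this held for 10, against 25.0% of all genes. Lyve1 was the 1 gene with every GIF-DTR sample below both controls, where 3420 of all 14889 genes were. It was at 10.1 and 7.65 CPM in the controls and at 5.06, 5.43 and 4.29 in GIF-DTR. The median log2 change of the 20 was 1.10.

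Each of the 5 calls was lost without control 1, without control 2 and without GIF-DTR 3, in turn. The fold changes themselves were larger without control 2 and smaller without control 1, at 5.52 and 2.97 on the log2 scale for Gpnmb and at 3.68 and 2.30 for Aif1. Each was also lost with scaling by stromal genes without Fbln1, where Cd14 stood at -0.12. Cd14 also rose in ATP4B-DTR (log2 fold change 1.60, adjusted p = 0.00856) and in GIF/ATP4B-DTR (1.97, adjusted p = 0.00168), at 13.3, 9.04 and 5.34 CPM and at 13.1, 12.7 and 9.76 CPM against 2.43 and 3.66 in the controls. In GIF/ATP4B-DTR Gpnmb rose (2.83, adjusted p = 0.0479) and Folr2, a folate receptor of resident macrophages, fell by 2.16 on the log2 scale (adjusted p = 0.0322). The ATP4B-DTR call of Cd14 was lost without control 1, and the Gpnmb and Folr2 calls in GIF/ATP4B-DTR were each lost without control 1, control 2, GIF/ATP4B-DTR 2 or GIF/ATP4B-DTR 3, in turn; that of Gpnmb was lost in 7 of the 11 such fits. In GIF-DTR against ATP4B-DTR 0 of the 20 were called by edgeR, with 7 at an unadjusted p under 0.05 (9.81% of all genes were) and 0 by DESeq2, and the median was 0.97. In GIF/ATP4B-DTR against GIF-DTR 0 were called by edgeR, with 8 at an unadjusted p under 0.05, against 18.0% of all genes. DESeq2 called 3, against 6.63% of all genes. The median was -1.02, and 12 of the 20 were lower in every GIF/ATP4B-DTR sample, against 14.2% of all genes.

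Of the other monocyte genes 8 of 10 were tested. In ATP4B-DTR against control 1 of the 8 fell, 0 rose and the median was 0.29, while 21.6% of all genes were called. In GIF-DTR 0 were called and the median was 0.61. In GIF/ATP4B-DTR edgeR called 2 lower and 0 higher and the median was 0.27, while it called 33.6% of all genes. DESeq2 called 2 lower and 1 higher there, against 38.5% of all genes. Between GIF-DTR and ATP4B-DTR edgeR called 0 and the median was 0.17. DESeq2 called 1 higher there, against 2.57% of all genes. Between GIF/ATP4B-DTR and GIF-DTR 1 fell and the median was -0.81. Ly6c2, a marker of the classical monocytes that carry CCR2, gave 3 of these 4 calls by edgeR. It was at 1.12 and 0.721 CPM in the controls, at 0.047, 0.176 and 0.166 in ATP4B-DTR, at 1.56, 1.22 and 1.51 in GIF-DTR, and at 0.081, 0.171 and 0.392 in GIF/ATP4B-DTR. It fell by 2.78 on the log2 scale in ATP4B-DTR against control (adjusted p = 0.0169), by 2.06 in GIF/ATP4B-DTR against control (adjusted p = 0.0323), and by 2.68 in GIF/ATP4B-DTR against GIF-DTR (adjusted p = 0.0434). GIF-DTR was 3.40 above ATP4B-DTR with an adjusted p of 0.0516. These are low levels, and several samples lie near the floor of 3 counts. Ly6c2 was lower in control 2 than in control 1, as was Cd68 and unlike the other 9 of the 10 genes, and its calls against control were lost without control 1, in ATP4B-DTR also without ATP4B-DTR 1, and in GIF/ATP4B-DTR also without control 2, GIF/ATP4B-DTR 1 or GIF/ATP4B-DTR 2. The call between GIF/ATP4B-DTR and GIF-DTR was kept in 2 of the 11 fits that each left out a sample, those without control 2 and without ATP4B-DTR 1. Without GIF/ATP4B-DTR 3 the log2 fold changes of Ly6c2 in the combined line were larger, at -2.83 against control and -3.46 against GIF-DTR. The other call was Ace, an angiotensin-converting enzyme that endothelial cells also carry, which fell by 1.74 in GIF/ATP4B-DTR against control (adjusted p = 0.0180) and was at -0.84 and not called without control 2.

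Of the ligands and partners of CSF1R (9 genes, 7 tested), Csf1 was at 0.853 and 6.60 CPM in the controls, at 6.75, 6.54 and 7.21 in ATP4B-DTR, at 16.6, 25.3 and 9.96 in GIF-DTR, and at 5.65, 13.8 and 15.7 in GIF/ATP4B-DTR; in GIF-DTR against control its log2 fold change was 2.23 ± 0.76 (adjusted p = 0.0755), and it was 1.39 without control 1 and 4.33 without control 2. Il34, the other ligand, fell by 2.40 on the log2 scale in ATP4B-DTR (adjusted p = 0.0339) and fell by 2.80 in GIF/ATP4B-DTR (adjusted p = 0.0123), from 0.539 and 3.22 CPM in controls 1 and 2; both calls were lost without control 2, where the log2 fold changes were -0.62 and -1.02. Csf2rb, a receptor chain shared by GM-CSF, IL-3 and IL-5, fell by 1.22 in ATP4B-DTR (adjusted p = 0.0458) and fell by 2.00 in GIF/ATP4B-DTR (adjusted p = 0.00291); the first call held in 2 of the 11 fits that each left out a sample and the second in all 11. Spi1 was at 0.359 and 2.05 CPM in the controls, between 1.44 and 1.84 in ATP4B-DTR, between 2.64 and 3.74 in GIF-DTR and between 0.847 and 1.97 in GIF/ATP4B-DTR, and was called in no comparison by edgeR or DESeq2. DESeq2 called Csf1 higher in GIF-DTR (adjusted p = 0.00565) and in GIF/ATP4B-DTR (adjusted p = 0.0314) against control.

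The ligands of CCR2 and CX3CR1 (Ccl2, Ccl7, Ccl8 and Cx3cl1 tested, Ccl12 not) gave 0 calls by edgeR in the 7 comparisons, with at most 2 at an unadjusted p under 0.05 in a comparison and 1 call by DESeq2 in GIF/ATP4B-DTR against control. Ccl2 was at 0.449 and 0.166 CPM in the controls, at 1.61, 0.747 and 0.952 in GIF-DTR and at 0.444, 2.95 and 1.39 in GIF/ATP4B-DTR. Cx3cl1 was more abundant, between 23.2 and 47.4 CPM over the 11 samples, and its GIF-DTR samples, at 30.6, 32.6 and 24.3 CPM, lay below both controls, at 47.4 and 33.6. The complement partners of C1q (10 tested) also gave 0 calls by edgeR, with at most 1 at an unadjusted p under 0.05 in a comparison and 1 call by DESeq2 in each of GIF-DTR and GIF/ATP4B-DTR against control. C1s1, the protease that C1q activates through C1r, was at 3.55 and 34.5 CPM in controls 1 and 2, at 29.2 in GIF-DTR 1, and at 6.57 and 8.13 in GIF-DTR 2 and 3. Within GIF-DTR, C1s1 was thus highest in the sample with the highest stromal sum, while C1qb was level.

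Of the activation genes (9 of 14 tested), Tnf, which encodes an inflammatory cytokine of macrophages and other cells, rose in all 3 lines. It had a single count in each control and was at 0.605, 1.19 and 0.663 CPM in ATP4B-DTR, at 0.331, 2.05 and 0.635 in GIF-DTR, and at 1.13, 1.28 and 2.92 in GIF/ATP4B-DTR (adjusted p = 0.0241, 0.0218 and 0.00409). The calls in ATP4B-DTR and GIF-DTR were lost without either control and, in turn, without ATP4B-DTR 2 and GIF-DTR 2. Il4ra, a chain of the IL-4 receptor, was called lower in ATP4B-DTR (log2 fold change -0.66, adjusted p = 0.0281) and in GIF/ATP4B-DTR (-0.69, adjusted p = 0.0161), from 38.8 and 40.2 CPM in the controls; both calls were lost without either control. Thus 1 of the 9 rose and 1 fell in each of these lines, with medians of -0.25 and -0.69. In the same comparisons 21.6% and 33.6% of all genes were called by edgeR. In GIF-DTR 1 rose, 0 fell and the median was 0.01, while 16.8% of all genes were called.

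Genes of other leukocytes were read beside these. In GIF-DTR against control, 4 of 8 tested genes of mast cells and eosinophils fell, where 1015 of all 14889 genes did: Cpa3, a mast cell protease, from 18.6 and 14.2 CPM to 6.24, 1.81 and 3.06, Tpsb2, Fcer1a and Kit, the stem cell factor receptor, which other mucosal cells also carry. The median of the 8 was -1.90. The other lines lay in the same direction. In ATP4B-DTR 1 of the 8 fell, where 1398 of all genes did, with a median of -0.48. In GIF/ATP4B-DTR 2 fell, where 2292 of all genes did, with a median of -1.33. Kit was at 82.1 and 89.1 CPM in the controls, between 8.998 and 14.9 in ATP4B-DTR, between 22.4 and 33.5 in GIF-DTR and between 5.49 and 8.23 in GIF/ATP4B-DTR. Cd52, a surface protein of leukocytes, rose in GIF-DTR against control by 1.78 on the log2 scale (adjusted p = 0.0111) and fell by 1.54 in GIF/ATP4B-DTR against GIF-DTR (adjusted p = 0.0286), where Laptm5 also fell by 1.29 (adjusted p = 0.0414). Without control 1 the first of these calls was lost, and leaving out each sample in turn kept the others in 6 and 3 of 11 fits. Against control, 1 of the 6 genes of leukocytes in general fell in ATP4B-DTR (Laptm5, by 1.01), where 1398 of all 14889 genes did. The median of the 6 was -0.32. For the combined line 3 of the 6 fell, where 2292 of all 14889 genes did, with a median of -0.76. These 3 were Ptprc, which encodes CD45, by 1.17, Laptm5 by 1.07 and Rac2 by 0.87 (adjusted p = 0.0234, 0.0226 and 0.0380). All 4 of these calls were lost without control 2, where Laptm5 was at -0.28 and -0.34 and Ptprc at -0.75.

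Most neutrophil genes were near 0: Ly6g had a single count in 1 of the 11 samples, Elane was at most 0.079 CPM and Mpo at most 0.124, and the 8 genes of the list summed to between 0.0403 and 5.71 CPM. Retnlg, the 1 gene of the list with enough counts to be tested, was at 0.090 and 0.776 CPM in the controls, at 0.605, 1.36 and 0.414 in ATP4B-DTR, at 0.331, 2.24 and 5.36 in GIF-DTR, and at 0, 0.599 and 0.142 in GIF/ATP4B-DTR. It was thus high in GIF-DTR 2 and 3, the samples in which Lyz2 was highest. Its log2 fold change was 2.64 in GIF-DTR against control (adjusted p = 0.217) and -3.42 in GIF/ATP4B-DTR against GIF-DTR (adjusted p = 0.183), where DESeq2 called it lower. T cell genes summed to between 0.658 and 3.16 CPM. The plasma cell gene Jchain stood at 3.86 and 52.6 CPM in controls 1 and 2, a difference in the same direction as for the macrophage genes. The part of cells other than macrophages in the levels of Lyz2, Mrc1 and Cd68, which such cells can also express, was not tested.

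Outside the lists, the 6 genes whose log2 CPM was most like the mean of the 10 over the 11 samples, among 12132 named genes with a mean of at least 1 CPM, were Rab3il1, Pld4, Mpeg1, Dab2, H2-M3 and Fcrls, with correlations from 0.97 to 0.95. Mpeg1, which encodes the pore-forming protein perforin-2 of macrophages, was at 3.05 and 11.1 CPM in controls 1 and 2, between 4.87 and 13.9 in ATP4B-DTR, at 17.7, 21.2 and 24.8 in GIF-DTR, and at 5.45, 12.996 and 7.73 in GIF/ATP4B-DTR. Pld4, a nuclease of myeloid cells, was at 0.180 and 0.942 CPM in the controls and between 2.51 and 3.89 in GIF-DTR. Without the controls, Pld4 ranked at 4 and the other 5 between 48 and 114. These likenesses rest on the same samples and are descriptions.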

How the data were processed

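Bulk RNA sequencing of gastric corpus mucosa was deposited for 11 samples, grouped by the genotype label. The deposited table holds the authors' expected counts per gene, read as such from its values because 30.7% of the nonzero entries are fractional; the libraries were stranded and poly(A)-selected per the labels' protocols. The build is mm10, per the submitters' processing notes; the aligner and the quantifier are not given in the sources used here. Symbols were found for 34582 of 34866 identifiers (99.2%), and 0 sample columns were left unused.

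Expected counts were rounded, and edgeR 4.0.16 in R 4.3.3 was fitted to all 11 samples by the quasi-likelihood test with robust moderation, TMM scaling, filterByExpr by group and 1 coefficient per genotype, so that the 2 controls shared the spread of every group. P-values were adjusted by Benjamini-Hochberg over the 14889 genes tested, and a gene was called at an adjusted p below 0.05. A standard error is the log2 fold change divided by the square root of F. CPM are scaled by TMM; log2 levels use a pseudocount of 0.1 CPM. The 3-count floors cover counting error only. The fit was tested on simulated data.

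Alternatives were DESeq2 1.42.0, other scalings (DESeq2 size factors, TMM without the 50 most abundant genes, stromal or endothelial genes), 2 other filters on low counts, no robust moderation, a Y-linked covariate, samples of 1 Y-linked state, only the groups compared, and leaving out each sample in turn. Replicate numbers of the lines follow accession order and pair no samples. The genes named are the 10 genes, genes of 20 further marker lists, the targeted genes and the 6 genes most like the 10. The members and lists were chosen with earlier results of these data known.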

Additional observations from a re-analysis of the deposited data

How the results depend on the processing

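Results were recomputed under each alternative, with genes called given as a percent of the genes tested. No paired analysis was possible because replicate numbers come from the labels in the controls alone. Scaling by stromal genes, by endothelial genes and by stromal genes without Fbln1 (added after seeing the data) called 0.947%, 1.42% and 0.678% in ATP4B-DTR, 1.03%, 0.840% and 0.947% in GIF-DTR, and 1.81%, 5.35% and 1.03% in GIF/ATP4B-DTR against control. It called 0.0940%, 0.0672% and 0.0403% between GIF/ATP4B-DTR and ATP4B-DTR, 0.289%, 65.4% and 0.168% between GIF/ATP4B-DTR and GIF-DTR, 0.309%, 0.242% and 0.269% for the interaction, and, without Fbln1, 0.255% between GIF-DTR and ATP4B-DTR. The Y-linked covariate called 12.996% in ATP4B-DTR and 3.54% in GIF-DTR against control, 0.175% between GIF-DTR and ATP4B-DTR, 0.00672% between GIF/ATP4B-DTR and ATP4B-DTR, 0.0940% between GIF/ATP4B-DTR and GIF-DTR, and 0.0269% for the interaction. Samples with Y-linked expression alone gave 6.02% in ATP4B-DTR against control and 0.0523% between GIF/ATP4B-DTR and ATP4B-DTR; samples without it gave 0.209% between the single lines. DESeq2 called 2.57% between GIF-DTR and ATP4B-DTR, 1.87% between GIF/ATP4B-DTR and ATP4B-DTR, 6.63% between GIF/ATP4B-DTR and GIF-DTR, and 4.90% for the interaction. Between GIF/ATP4B-DTR and ATP4B-DTR, no filter gave 0.254% and only the groups compared 0.00722%; for the interaction no filter gave 0.851%, 10 counts in every sample 1.26% and no robust moderation 0.410%. The causes were not tested.

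Of the 10 genes, endothelial scaling called 1 in ATP4B-DTR against control and 2 in GIF/ATP4B-DTR. In GIF-DTR against control, 0 were called with stromal scaling, with or without Fbln1, with the Y-linked covariate and with only the groups compared. DESeq2 called 2, as did edgeR without robust moderation. With 10 counts in every sample 0 of 9 were called. That filter removed Ccr2, which had 1 count in control 1, so its call could not be checked there. Between GIF/ATP4B-DTR and GIF-DTR, 1 was called higher with endothelial scaling, while 3 were called lower by DESeq2 and 5 lower with only the groups compared; for the interaction DESeq2 called 1.

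Leaving out each sample in turn called 8.51% to 22.4% of genes in ATP4B-DTR, 5.63% to 17.7% in GIF-DTR and 18.6% to 34.0% in GIF/ATP4B-DTR against control. It called 0.114% to 0.942% between GIF-DTR and ATP4B-DTR, 0% to 0.289% between GIF/ATP4B-DTR and ATP4B-DTR, 1.08% to 2.54% between GIF/ATP4B-DTR and GIF-DTR, and 0% to 1.86% for the interaction. Of the 10 genes it called 0 to 3 in ATP4B-DTR, 0 to 7 in GIF-DTR and 0 to 2 in the combined line against control, and 0 to 4 between GIF/ATP4B-DTR and GIF-DTR. A lone control was assumed to vary like the other groups.

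Some log2 fold changes turned direction. Against control in GIF-DTR, Cd68 was at -0.45, -0.0070 and -1.42 with stromal scaling, endothelial scaling and stromal scaling without Fbln1, Cx3cr1 at -0.77 and Cd14 at -0.12 with the last, and Mrc1 at 0.011 without the 50 most abundant genes, 0.16 and 0.71 with stromal and endothelial scaling and 1.29 with the Y-linked covariate. Csf1r ranged from -0.12 to 3.35 and Mrc1 from -0.87 to 2.39 (0.17 without GIF-DTR 2) when samples were left out. Between GIF-DTR and ATP4B-DTR, endothelial scaling gave -0.20 for Adgre1, -1.33 for Cd68, -0.86 for Mrc1, -0.15 for Cx3cr1 and -0.16 for Kit; stromal scaling gave -0.58 for Cd68 and -0.082 for Mrc1, and -0.92 and -0.27 without Fbln1. There Cd68 was at -0.13 with the Y-linked covariate, at -0.16 in samples without Y-linked expression, and from -0.14 to 0.15 when samples were left out (-0.01 without GIF-DTR 1 and -0.05 without GIF-DTR 2). Between GIF/ATP4B-DTR and GIF-DTR, endothelial scaling gave 0.37 for Adgre1, 1.84 for Cd68, 0.70 for Mrc1, 0.12 for C1qa, 0.22 for C1qc, 0.14 for Lyz2, 0.60 for Cx3cr1, 0.0061 for Ccr2, 0.43 for Cd52, 0.65 for Laptm5 and 0.12 for Kit. Against control it gave 0.34 for Il4ra and 0.43 for Laptm5 in ATP4B-DTR, and 0.92 for Il4ra, 0.47 for Ace, 0.72 for Ptprc, 0.92 for Laptm5 and 0.82 for Rac2 in the combined line. In GIF/ATP4B-DTR against GIF-DTR, Cd68 was at 1.04 with stromal scaling, 1.17 without Fbln1 and 0.54 with the Y-linked covariate. It ranged there from -0.38 to 0.19 when samples were left out (0.01 without GIF-DTR 1, 0.04 without GIF-DTR 2, and 0.02 without the second GIF/ATP4B-DTR sample).

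With 2 controls, comparisons with control rest on the fewest samples. Levels near the floor of 3 counts, as for Ccr2 in control 1 and Tnf in both controls, rest on single counts.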
